A study of Mus musculus with 5 samples.

Results

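The genes of the endoplasmic reticulum (ER) stress response described here were 10 genes chosen by name: Hspa5, Dnajb9, Herpud1, Sdf2l1, Pdia4, Hyou1, Atf4, Ddit3, Trib3 and Asns. They were read from a table of 19938 genes, each gene represented by the probe set of highest mean that carries its symbol alone. The first 6 are ER chaperones, folding enzymes and degradation factors, called the chaperone branch below, and the last 4 are Atf4 and genes linked to it, called the ATF4 branch. All 10 had a probe set of their own. Of these, 7 had a mean log2 intensity of at least 6 and were tested with the other genes above that level. Ddit3, Trib3 and Asns lay under it and are described without a test.

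Proteins that enter the secretory pathway fold in the ER with the help of chaperones, and unfolded protein there activates the sensors IRE1, ATF6 and PERK. IRE1 splices the Xbp1 transcript and ATF6 is cleaved to a transcription factor, and both raise chaperone and degradation genes. PERK and related kinases slow translation while favouring that of ATF4, which raises genes of amino acid supply and, under lasting stress, Ddit3. In the pancreas this response is best known from acinar and beta cells, and among leukocytes from antibody-secreting plasma cells.

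The samples were CD45+ cells, the marker of leukocytes, isolated by flow sorting from the pancreas of female wild-type NOD mice aged 10 weeks, a strain in which autoimmune diabetes arises spontaneously. There was 1 array for each of 5 mice and 1 group, with no control strain or treatment. Each mouse carried a T2 value from magnetic resonance imaging, the transverse relaxation time of the tissue, which in mice 1 to 5 was 35.3, 35.24, 32.77, 30.02 and 28.98 ms. The design asks which transcripts vary with that signal. Slopes are given in log2 units per ms, with standard errors, so a negative slope means higher expression at lower T2. A fold is the fitted ratio of lowest to highest T2, which lie 6.32 ms apart. T2 declined with the sample number, so an effect of handling order cannot be told apart from T2.

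Leukocyte markers were high, with a mean log2 intensity of 10.57 ± 0.030 (SD, n = 5) over 5 genes including Ptprc. Laptm5 alone of the 5 was at an unadjusted p under 0.05, reading 3104, 3464, 3781, 4096 and 4180 in mice 1 to 5, a 1.285-fold difference (95% interval 1.117 to 1.478, limma adjusted p = 0.503). Islet markers were near the low end of the scale in every mouse, at 3.87 to 3.99 over 6 genes. The acinar list averaged 5.77 to 6.36 over 10 genes, of which 6 were past the filter, while the acinar transcription factor genes Ptf1a and Rbpjl stayed at 3.86 and 4.05. In such bulk samples fewer cells of a type and less RNA per cell cannot be told apart. Many probe sets had one and the same value on several arrays: 38.2% of the genes tested, and 4 of the 10 genes described here, were equal on 3 or more. With 5 arrays every slope has a wide error.

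The promoters of 9 of the 10 genes were matched in RefSeq (GRCm38.p6, 250 bases before to 50 after the start). Of those with a match to elements known from these responses, 3 are printed. Both strands of 32851 windows of the same length were searched. The ER stress response element (ERSE), read as CCAAT and CCACG with 9 bases between them, was present in 0.119% of all windows and, among these genes, in Hspa5 alone, 65 to 47 bases before the start. The variant ERSE-II, ATTGG and CCACG with 1 base between them, was present in 0.0365% of windows and in Herpud1. The core of the unfolded protein response element, TGACGTG, was in 2.01% of windows and in Hspa5, and the core of the composite site of C/EBP and ATF factors, TGATGNAA, in 3.97% of windows and in Herpud1, Trib3 and Asns. The match in Trib3, which is not printed, lay after the start. Herpud1 of the chaperone branch had both kinds of element, so the elements did not divide by branch. None of these matches overlapped another. Matches are in capitals, and each sequence reads 5′ to 3′ along its gene.
Hspa5, chr2:34771840-34772139, plus strand: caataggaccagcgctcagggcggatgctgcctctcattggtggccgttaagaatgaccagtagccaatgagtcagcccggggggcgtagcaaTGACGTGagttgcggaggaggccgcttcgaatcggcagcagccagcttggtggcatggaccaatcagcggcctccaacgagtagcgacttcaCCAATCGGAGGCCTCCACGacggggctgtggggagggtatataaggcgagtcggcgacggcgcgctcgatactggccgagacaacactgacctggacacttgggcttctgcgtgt
Herpud1, chr8:94386179-94386478, plus strand: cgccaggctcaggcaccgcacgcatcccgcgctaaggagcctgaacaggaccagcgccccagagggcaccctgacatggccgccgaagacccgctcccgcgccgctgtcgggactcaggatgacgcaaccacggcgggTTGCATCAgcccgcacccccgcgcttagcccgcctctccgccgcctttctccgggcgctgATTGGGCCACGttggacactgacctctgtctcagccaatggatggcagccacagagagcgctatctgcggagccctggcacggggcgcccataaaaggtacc
Asns, chr6:7693160-7693459, minus strand: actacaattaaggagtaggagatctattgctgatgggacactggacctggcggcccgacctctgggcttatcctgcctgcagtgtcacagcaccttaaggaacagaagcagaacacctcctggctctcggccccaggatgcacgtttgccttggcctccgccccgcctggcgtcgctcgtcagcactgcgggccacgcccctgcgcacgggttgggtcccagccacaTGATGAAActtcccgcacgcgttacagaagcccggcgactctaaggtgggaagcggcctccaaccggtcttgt
A match is a description of these letters and not a measured site.

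Hspa5, which encodes BiP, the main Hsp70 chaperone of the ER lumen, was higher in the mice of lowest T2. It read an intensity of 699, 731, 691, 877 and 952 in mice 1 to 5. Mice 4 and 5 stood above the other 3, which lay between log2 9.43 and 9.51. The slope was -0.064 ± 0.017 and the fold 1.32 (95% interval 1.075 to 1.63). This was the lowest p of the 10 genes, 0.0204 before adjustment in limma's moderated test, and it did not pass over all genes (adjusted p = 0.677). An exact permutation of T2 over its 120 orders gave p = 0.0917 (two-sided), where the smallest possible is 0.00833. Leaving out 1 mouse at a time kept the slope between -0.075 and -0.051. The unadjusted limma p rose to 0.0701 without mouse 1, 0.0378 without mouse 2, 0.0746 without mouse 4 and 0.134 without mouse 5. Without mouse 3 it fell to 0.0036, with an adjusted p of 0.613.

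Dnajb9, the BiP co-chaperone ERdj4 and a known target of spliced XBP1, varied most of the 10. Mice 1 to 5 read 202, 182, 154, 202 and 265, a range of 1.72-fold. Mouse 5 was highest and mouse 3 lowest, while mice 1 and 4, at opposite sides of the T2 range, had equal values. The slope was -0.056 ± 0.041 (limma adjusted p = 0.828), and it was -0.0030 without mouse 5, so the slope rested on that mouse.

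Herpud1, Pdia4 and Hyou1 were each lowest in mouse 2. Herpud1, a membrane protein of ER-associated degradation (ERAD), read 497, 370, 449, 488 and 479 in mice 1 to 5. Its largest difference, 0.42 log2 units, was between mice 1 and 2, which have nearly the same T2. Hyou1, the nucleotide exchange factor of BiP known as GRP170, read 290, 242, 272, 299 and 272, and its slope was -0.016 ± 0.019. Pdia4, the disulfide isomerase ERp72, read 412, 376, 404, 412 and 422, a range of 1.12-fold, with a slope of -0.015 ± 0.0090. That slope was -0.0051 without mouse 2, -0.024 without mouse 1 and -0.00056 after renewed quantile normalization. Without mouse 2 the slopes of Herpud1 and Hyou1 changed from -0.029 and -0.016 to 0.0022 and 0.0034. A further probe set of Pdia4, not used, read 21.7 to 24.5, near the array medians of 23.8 to 24.5.

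Sdf2l1, a lumenal protein found in the BiP complex, read 128 in 4 mice and 142 in mouse 3. Its slope was 0.0013 ± 0.012, and the fold 0.994 had a 95% interval of 0.858 to 1.15. Of the chaperone branch, Hspa5 alone had both mice of lowest T2 above both of highest T2, and the values of the other 5 genes overlapped. Among all genes tested, 15.4% had both low-T2 mice above and 3.63% had both below. These shares were 48.8% and 2.92% with centred arrays, where 5 of the 7 tested genes of both branches had the low-T2 mice above, and 7.62% and 33.8% after renewed quantile normalization, where Hspa5 alone did.

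**Figure D1:**
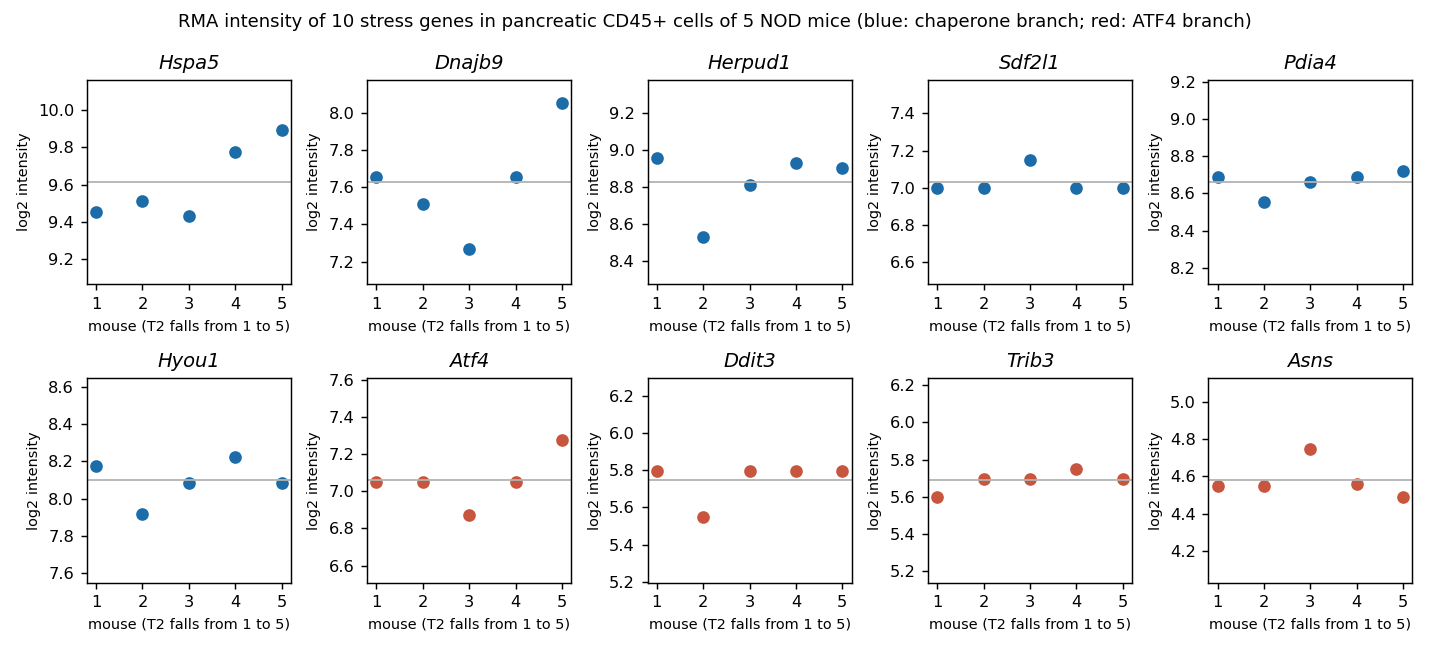
Log2 intensity of each gene in mice 1 to 5 (1 point for each mouse; the grey line is the mean over mice, and every panel spans the same height). Hspa5 lies at 9.78 and 9.89 in mice 4 and 5 against 9.43 to 9.51 in the others, while Sdf2l1 and Ddit3 take one value in 4 of the 5 mice.

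In the ATF4 branch only Atf4 was past the expression filter. Atf4, the transcription factor of the integrated stress response, read 132 in mice 1, 2 and 4, 117 in mouse 3 and 155 in mouse 5. As with Dnajb9, mouse 5 was highest and mouse 3 lowest. The slope was -0.025 ± 0.022 (limma adjusted p = 0.831) and turned to 0.0053 without mouse 5. ATF4 is controlled in large part at translation, which an array does not measure.

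Ddit3, the factor CHOP that is induced under lasting ER stress, read 55.5 in 4 mice and 46.8 in mouse 2. Trib3, a pseudokinase induced by ATF4 and CHOP, read 48.5, 51.9, 51.9, 53.7 and 51.9 in mice 1 to 5. Asns, asparagine synthetase, read 23.4, 23.4, 26.9, 23.6 and 22.5, close to the median of each array. The slopes were -0.020 ± 0.017, -0.012 ± 0.0076 and 0.0068 ± 0.017 in a fit with no filter. The slope of Ddit3 was 0.0 without mouse 2, and that of Trib3 was -0.0036 without mouse 1. That of Asns was -0.0081 without mouse 5 and -0.00072 after renewed quantile normalization, so its sign was not settled. Just inside the filter among the 10 genes was Sdf2l1 at a mean log2 intensity of 7.03, and just outside it was Ddit3 at 5.75.

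No gene of either branch passed limma's moderated test at an adjusted p under 0.05, nor did any of the 6603 genes tested (0.0%). At an unadjusted p under 0.05 there was Hspa5, 1 of the 7 genes past the filter, against 5.29% of all genes tested, and 4.59% with higher values at lower T2. Slopes were negative in 8 of the 10 genes, beside 46.3% of all 19938 genes in a fit with no filter, most of which lay under it. Among the 7 tested, 6 were negative, beside 67.9% of all genes tested. That background moved with the scaling: it was 39.9% when arrays were quantile normalized again and 79.5% when they were centred on their medians, with 6 and 7 of the 7 genes negative. Without mouse 5 it was 51.3%, and without mouse 2 it was 65.5% with 4 of the 7 negative. The median slope was -0.018 over the 10 genes and 0.0 over all genes in the fit with no filter. Over the 7 tested it was -0.025, and over all genes tested -0.0074. In 5 of the 10 genes mice 1 and 2, of nearly equal T2, differed by more than the fitted change across the whole T2 range. The 5 include Ddit3 and Trib3, under the filter, and the same share was not counted over all genes. The SD over mice ran from 0.053 for Trib3 to 0.28 for Dnajb9, beside a median of 0.11 over the genes tested.

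**Figure D2:**
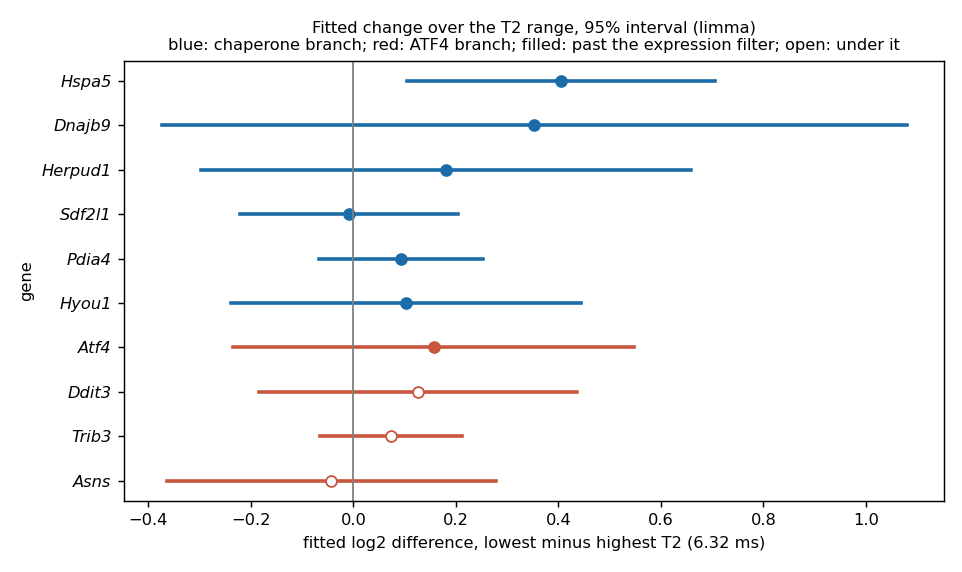
Fitted log2 difference between the lowest and the highest T2 for each gene (point, limma) with its 95% interval (bar, n = 5); open points lie under the expression filter. The interval of Hspa5, around 0.40, lies above 0, and the intervals of the other 9 genes include 0.

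The branches were compared within each mouse, because intensities of different probe sets are not comparable as amounts and the higher mean of the chaperone branch says nothing of its abundance. The chaperone mean was 8.32, 8.17, 8.23, 8.38 and 8.44 in mice 1 to 5, with a slope of -0.030 ± 0.013. The ATF4 mean was 5.75, 5.71, 5.78, 5.79 and 5.81, with a slope of -0.012 ± 0.0032. Both were highest in mouse 5 and lowest in mouse 2. Their difference was 2.57, 2.46, 2.46, 2.59 and 2.63 in mice 1 to 5. Its slope was -0.017 ± 0.012, given without a test. With the 3 genes under the filter left out, a choice made after the data were seen, Atf4 alone gave -0.025 ± 0.025 and the difference became -0.0049 ± 0.020. With 5 mice, a difference between the slopes of the branches was not resolved from 0 in either form.

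**Figure D3:**
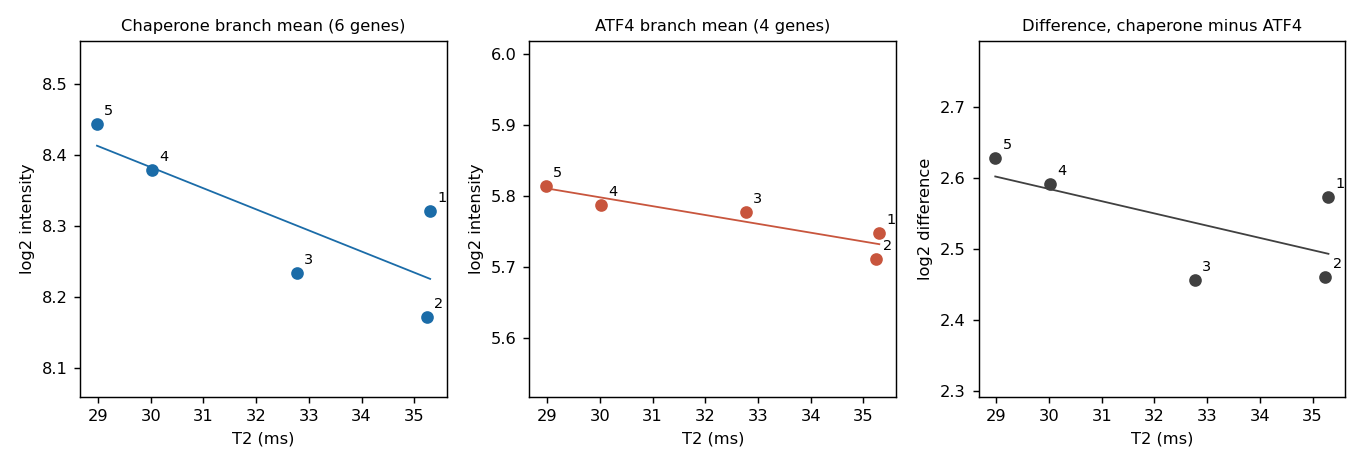
Mean log2 intensity of the chaperone branch and of the ATF4 branch, and their within-mouse difference, against T2 in ms (points numbered by mouse; lines are least-squares fits; each vertical axis spans the same height). The chaperone mean goes from 8.17 in mouse 2 to 8.44 in mouse 5 and the ATF4 mean from 5.71 to 5.81.

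The other genes of the pathway were taken from 4 lists of 86 symbols, of which 82 were measured and 63 were past the filter. None passed over all genes in limma (lowest adjusted p = 0.335). At an unadjusted p under 0.05 in limma there were 4, each higher at lower T2, which is 6.35% of the 63. Over all genes tested the share was 5.29%, and 4.59% with higher values at lower T2. Negative slopes made up 76.2%, and 15 of the 63 had both low-T2 mice above both high-T2 mice (23.8%), beside the 67.9% and 15.4% of all genes given above.

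Folding enzymes and chaperones of the ER other than those above had 18 genes past the filter, and 15 had negative slopes. In 7 of the 18 (Calr, Canx, Pdia3, Pdia6, P4hb, Dnajc10 and Uggt1) both low-T2 mice were above both high-T2 mice. That is 38.9%, beside 15.4% of all genes tested, a background that moved with the scaling as given above. The same held for 5 of 17 ERAD and translocon genes, 1 of 11 sensors and signalling genes and 2 of 17 further ATF4 targets. Pdia6, a disulfide isomerase, read 319, 322, 382, 354 and 438 in mice 1 to 5. Mouse 5 was highest, and the fold was 1.27 (95% interval 1.008 to 1.59, limma adjusted p = 0.828). Uggt1, which senses the folding of glycoproteins, had a fold of 1.11 (1.01 to 1.22). P4hb, protein disulfide isomerase itself, read 518, 508, 647, 760 and 630, so mouse 4 and not mouse 5 was highest. Manf, a secreted factor of the ER stress response, was listed at the same value on all 5 arrays.

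Of 17 ERAD and translocon genes past the filter, 12 had negative slopes. Derl1, a channel component through which misfolded proteins leave the ER, had the lowest p of the pathway, 0.00245 before adjustment. It read 217, 206, 268, 291 and 303 in mice 1 to 5, so mice 3, 4 and 5 stood above mice 1 and 2. The slope of -0.083 ± 0.012 corresponds to a 1.44-fold difference (95% interval 1.25 to 1.67, limma adjusted p = 0.335). Os9, a lectin of ERAD, and Sec61a1, the pore of the translocon, had slopes of -0.029 ± 0.014 and -0.035 ± 0.016.

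Of 11 sensors and signalling genes past the filter, 9 had negative slopes and 0 had an unadjusted p under 0.05. Ern1, which encodes IRE1, read 138, 93.8, 154, 138 and 170 in mice 1 to 5. Mouse 2 was thus lowest again, as it was for Xbp1, the IRE1 substrate, at 258 against 311 to 344 in the other mice. Spliced and unspliced Xbp1 were not analysed separately. Mbtps1, the site-1 protease that cleaves ATF6, had a slope of -0.038 ± 0.018, and Ppp1r15b, a phosphatase subunit that reverses the translation block, -0.018 ± 0.014.

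Of 29 further ATF4 targets measured, 17 were past the filter, with 12 negative and 5 positive slopes. The mean over the 29, which includes the 12 under the filter, had a slope of -0.0025 ± 0.0030, an average of members that went both ways. Over the 17 past the filter the median slope was -0.018, beside -0.0074 over all genes tested. Atf3, a stress-induced transcription factor, varied most of the 17 and read 133, 88.9, 112, 107 and 200 in mice 1 to 5. Mouse 5 was highest and mouse 2 lowest, and its slope of -0.087 ± 0.063 had a wide error (limma adjusted p = 0.828). Mthfd2, a mitochondrial enzyme of folate metabolism, had a slope of 0.044 ± 0.027. Slc3a2, the heavy chain of amino acid transporters, read 512, 496, 495, 540 and 569 in mice 1 to 5. Mice 4 and 5 were highest, and the fold was 1.12 (95% interval 1.004 to 1.24, limma adjusted p = 0.828). Slc38a2, a neutral amino acid transporter, had a slope of -0.037 ± 0.016. Ddit4, an inhibitor of mTORC1 induced by several stresses, went the other way at 0.047 ± 0.020, reading 163 in mouse 2 and 119 in mouse 5.

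Other cell and stress markers differed between the same mice. Heat shock genes of the cytosol and mitochondria (6 of 7 measured, 5 past the filter, all 6 with negative slopes) lay at -0.48, -0.15, -0.11, 0.23 and 0.50 log2 units from their own mean in mice 1 to 5. Hspa1a, the inducible cytosolic Hsp70 and a relative of Hspa5, had a slope of -0.38 ± 0.040, steeper than the -0.064 of Hspa5. Macrophage markers (9 of 9 measured) averaged 7.54, 7.55, 8.16, 8.62 and 8.66. The part of either in the slopes of Hspa5 and Derl1 was not tested. Neutrophil markers (8 of 8 measured, 4 past the filter) had the widest range of these lists, from -0.76 log2 units in mouse 4 to 1.08 in mouse 3 about their mean. Mouse 3 is also where Sdf2l1 and Asns were highest and Hspa5, Dnajb9 and Atf4 lowest, and a part of these markers in those values was not tested. Mouse 2, lowest in Herpud1, Pdia4, Hyou1, Ern1 and Xbp1, was also lowest in the lists of plasma cells, B cells and acinar cells and highest in that of T cells. It was lowest as well in the leukocyte list, at 10.52, and in the mean of each wider pathway list. Of the plasma cell list Sdc1, Prdm1, Fkbp11 and Slamf7 had equal values in mice 1 and 2. The plasma cell list averaged 6.18 in mouse 1 and 5.82 in mouse 2 over 9 genes, of which 5 were past the filter, while Sdc1 and Tnfrsf17 stayed at mean log2 intensities of 4.78 and 3.61. With the plasma cell list as a covariate the standard error of the Herpud1 slope was 0.013, beside 0.027 without it, and its slope was -0.029 in both fits. The same covariate gave Pdia4 -0.015 ± 0.0040 (limma adjusted p = 0.508) and left Hspa5 at -0.064 ± 0.019. With the acinar list as covariate Herpud1 had -0.025 ± 0.011 and Hspa5 -0.064 ± 0.019. The T2 slopes of the plasma cell and acinar lists themselves were 0.00087 ± 0.0265 and -0.0055 ± 0.042, small beside their errors. A covariate so little related to T2 could hardly move a T2 slope. An unchanged slope is thus no test of a part of these cells, and each covariate also costs a residual degree of freedom.

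**Figure D4:**
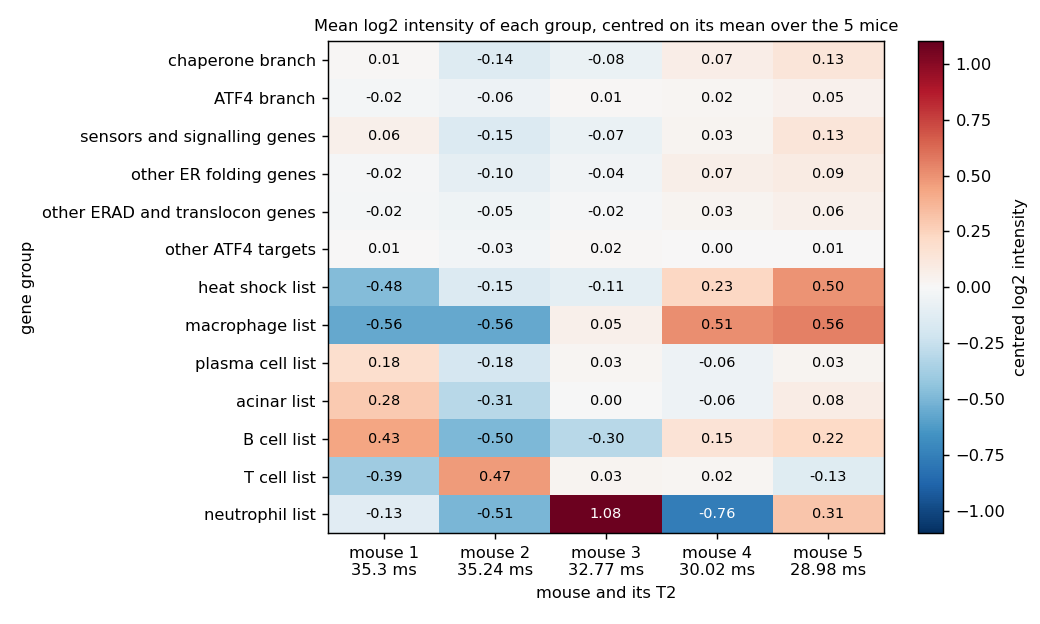
Mean log2 intensity of each gene group in each mouse, centred on the mean of that group over the 5 mice (colour and printed value). The chaperone branch ranges from -0.14 to 0.13, the heat shock list from -0.48 to 0.50, the macrophage list from -0.56 to 0.56, the T cell list from -0.39 to 0.47 and the neutrophil list from -0.76 to 1.08.

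The genes outside all lists with the profile nearest to each branch were found by the root mean square distance between log2 profiles centred over the 5 mice, among 6487 genes. Nearest to the chaperone mean were Rufy1, Pitpna, Ncoa3, Osbpl9 and Efcab14, at distances of 0.019 to 0.027, where the median gene lay at 0.11. Nearest to the ATF4 mean were Lmo4, Slc39a9, Strap, Mrpl3 and Maea, at 0.0077 to 0.014 against a median of 0.093. Each branch mean itself lay only 0.097 and 0.036 from a flat line by the same measure, so small distances were easily reached.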

How the data were processed

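RNA was extracted with TriZol and labelled with biotin, per the labels. The authors deposited linear intensity values for each probe set. The submitters' processing notes name RMA and Affymetrix Power Tools, and the version is not given in the sources used here. Values were transformed to log2. GEO's platform annotation named 21789 of 35556 probe sets with 1 symbol, and for each gene the set of highest mean was kept. T2 was the single term of a linear model for each gene in limma 3.58.1, run under R 4.3.3 with moderated variances (two-sided, 3 residual degrees of freedom, Benjamini-Hochberg over the 6603 genes with a mean of at least 6, threshold 0.05). Standard errors and intervals of genes are moderated, and those of group means are from least squares. The fit was run on simulated data with planted slopes steeper than those of the branch genes and no equal values across arrays. Its recovery of slopes as small as theirs was not tested.

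The genes and lists were chosen with earlier results of these data known. Named from the wider lists were the 3 genes of largest absolute moderated t and any at an unadjusted p under 0.05; other names were chosen after their values were seen. Alternatives were other filters, normalizations, probe-set rules, T2 ranks, variance models, array weights, covariates, genes with equal values left out, permutation and each mouse left out. P-values measure the spread between these 5 mice.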

Additional observations from a re-analysis of the deposited data

Results flagged for a closer look

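In 25 gene and branch profiles, 1 mouse lay apart from the other 4, by its gap to the nearest as a share of the whole range, in 3 genes. Chance alone gives about 1 in 20 for independent values without ties. Equal values are common here and the branch profiles share genes with the others, so that rate is no measure of these 3. Sdf2l1 was highest in mouse 3, at an intensity of 142 against 128 in all others (gap share 1.0). Ddit3 was lowest in mouse 2, at log2 5.55 against 5.79 in all others (gap share 1.0). Asns was highest in mouse 3, at log2 4.75 against 4.49 to 4.56 (gap share 0.734). The first 2 had one value on 4 arrays, which by itself sets the gap share at 1.0, and Ddit3 and Asns lay under the expression filter.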

How the results depend on the processing

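No gene of the branches or wider lists passed the adjusted threshold under any of 18 alternatives. Over all genes 3 passed with a filter of 7, 4 with array weights, 22 with centred arrays and 35 without genes of equal values, against 0. Genes at an unadjusted p under 0.05 numbered 349, against 219 with a filter of 7, 646 with no filter, 600 with array weights, 565 and 582 with the acinar and plasma cell covariates, 659 without mouse 1 and 528 without mouse 4. In the wider lists they numbered 4, against 2 after renewed quantile normalization, 14 with array weights and 10 without mouse 1. Of the 10 genes, Hspa5 and Pdia4 had such a p with either covariate, Herpud1 and Pdia4 without mouse 1, and 0 genes without mouse 4 or mouse 5. The chaperone slope was -0.015 after renewed quantile normalization and -0.044 to -0.022 without each mouse. The ATF4 slope was -0.0085 after renewed quantile normalization, -0.016 with centred arrays, -0.019 with a filter of 5, -0.025 with filters of 6 or 7, and 0.0068 without genes of equal values, which leaves Asns alone. The difference of the branches was -0.0049 with filters of 6 or 7 and -0.043 without genes of equal values. With centred arrays 7 of the 10 genes, against 1, had both low-T2 mice above both high-T2 mice. Of the 7 tested genes 5 did, beside 48.8% of all genes tested with that centring. The slope of Sdf2l1 was -0.0027 with centred arrays. Without each mouse the slopes ran from -0.0044 to 0.0063 for Sdf2l1, -0.060 to 0.0022 for Herpud1, -0.024 to -0.0051 for Pdia4, -0.083 to -0.0030 for Dnajb9, -0.035 to 0.0034 for Hyou1 and -0.034 to 0.0053 for Atf4. Signal near the array median limits Asns. No paired analysis was possible because there was 1 group.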
